A study of Homo sapiens with 9 samples.

Results

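The comparison described here sets Huh7 cells transfected with Si-KDM4C#2, 1 of the siRNAs against the histone demethylase KDM4C, against Huh7 cells transfected with Scramble control siRNA. It takes 6 of the 9 RNA-sequencing libraries of the series, 3 per group. Of 32906 listed genes, the 14126 with a mean of at least 1 FPKM (fragment counts scaled to exon length and to library size) in 1 of the 2 groups were tested. Huh7, a cell line long in culture that came from a human liver tumour (hepatocellular carcinoma), was grown in DMEM with serum. Both groups were labelled as Huh7 cells collected 48 h after transfection, and the siRNA is the only difference the labels name. The 3 remaining libraries, from cells given Si-KDM4C#1, are used below to test whether a change with Si-KDM4C#2 differed between the siRNAs. The question of the comparison was which transcripts differed once KDM4C was silenced.

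KDM4C belongs to the JmjC-domain lysine demethylases, which remove methyl groups from histone H3. The family acts on trimethylated and dimethylated lysine 9, a mark of silent chromatin, and on lysine 36, a mark of transcribed gene bodies. KDM4A, KDM4B and KDM4C share a domain layout with PHD and Tudor domains, and the shorter KDM4D lacks them. An siRNA lowers the mRNA it matches and can also lower other mRNAs with partial matches. Values of a second siRNA are therefore given beside those of Si-KDM4C#2, but for some genes only. A change given without them may not be shared by the second siRNA.

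The libraries held between 15097836 and 17136957 fragments with Scramble and between 15499478 and 17061233 with Si-KDM4C#2, recovered from the FPKM values as described under the processing. The labels number the libraries 1 to 3 and do not say whether these were separate cultures, so p-values measure only the spread between these libraries. Of 19 listed hepatocyte markers, 17 were under 1 FPKM in all 6 libraries, AFP among them, while CPS1 and CEBPA were above. The name Huh7 is therefore used as the labels give it, and these markers do not show a hepatocyte profile. Fibroblast markers at or above 1 FPKM were COL1A1, LUM, COL3A1 and PDGFRB, 4 of 10 listed, and their list summed to between 50.4 and 53.8 FPKM with Scramble and between 80.7 and 81.8 FPKM with Si-KDM4C#2. Most of that sum was COL3A1, at 27.5 against 55.5 FPKM, and the 4 markers differed in both directions, with 2 higher and 1 lower at the FDR limit and a median log2 difference of 0.03. The hepatocyte markers summed to between 285.9 and 316.6 FPKM with Scramble and between 205 and 211.4 FPKM with Si-KDM4C#2, most of it CPS1, and both tested members were lower at the FDR limit. No blood cell marker reached 1 FPKM, and ESAM alone among 6 endothelial and SNAP25 alone among 7 neural markers did. The 10 most abundant genes took 24.2% to 27.4% of the summed FPKM with Scramble and 18.9% to 20.5% with Si-KDM4C#2. Transcripts of the mitochondrial genome held 8.08% to 9.53% of fragments with Scramble and 6.41% to 6.89% with Si-KDM4C#2. Whether any of these shifts has a part in the changes described below was not tested.

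KDM4C itself (ENSG00000107077, plus strand of chromosome 9 from 6720863 to 7175648 in GRCh38) stood at 4.88, 4.63 and 4.57 FPKM in the Scramble libraries and at 0.256, 0.349 and 0.256 FPKM in the Si-KDM4C#2 libraries. The groups lay far apart, and mean FPKM was 16.4 times higher with Scramble. On the log2(FPKM + 1) scale, which understates changes of low genes, KDM4C fell by 2.15 (SE 0.08, adjusted p = 3.09e-06, limma). With Si-KDM4C#1 it fell by 1.41 on the same scale, to a mean of 1.14 FPKM, and the difference between the siRNAs was -0.73 (adjusted p = 2.40e-05, limma).

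KDM4B (ENSG00000127663, chromosome 19 from 4969113 to 5153595), the closest relative by domain layout together with KDM4A, was also lower. Its libraries read 6.67, 6.06 and 6.10 FPKM with Scramble and 1.10, 1.17 and 1.26 FPKM with Si-KDM4C#2, a ratio of 5.34 between the means. KDM4B fell by 1.74 on the log2 scale (SE 0.07, adjusted p = 3.09e-06, limma), and both groups were far apart. With Si-KDM4C#1 the mean was 5.77 FPKM (log2 difference -0.11, adjusted p = 0.24, limma), and the siRNAs differed by -1.63 for this gene (adjusted p = 1.45e-07, limma). Si-KDM4C#2 cells were therefore low in transcripts of both demethylases, and effects of one cannot be told apart from those of the other in this comparison. KDM4A libraries overlapped between the groups, with means of 4.52 ± 0.391 and 4.05 ± 0.202 FPKM (SD, n = 3 each). The interval of its log2 difference ran from -0.29 to 0.04. KDM4D was near the detection limit, with 60 fragments in all with Scramble and 100 with Si-KDM4C#2. In the fit over all listed genes its log2 difference was 0.26 (adjusted p = 0.0726, limma). For each of KDM4B and KDM4C the exact permutation test of 3 against 3 libraries gave p = 0.1, the smallest it can give. None of 19 other tested histone lysine demethylases passed both limits of a call (given below), where 2.65% of all tested genes were higher and 2.34% lower. Of 25 methyltransferases and readers of H3K9 and H3K36, 0 passed both limits, while 13 were higher and 4 lower at the FDR limit alone (34.3% and 24.9% of all tested genes), among them SUV39H2, an H3K9 methyltransferase, at 4.53 against 9.42 FPKM, and CBX5, the reader HP1 alpha, at 23.2 against 12.2 FPKM (Scramble against Si-KDM4C#2).

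Genes that the study followed for their link to liver cancer, WNT6, HKDC1, FGF18, KLF2 and CXCL2, differed widely in depth. WNT6, a secreted Wnt ligand, read 12.8, 10.1 and 11.9 FPKM with Scramble and 5.46, 5.28 and 4.65 FPKM with Si-KDM4C#2. It was the only 1 of the 5 to pass both limits, with a fall of 1.04 on the log2 scale (SE 0.09, adjusted p = 7.38e-05, limma). Without Scramble replicate 1 its log2 difference was -0.97 and without Si-KDM4C#2 replicate 3 it was -0.98, both short of 2-fold. HKDC1, a hexokinase, read 1.76, 1.98 and 1.51 against 0.333, 0.573 and 0.385 FPKM, with a log2 difference of -0.94 (adjusted p = 0.000616, limma) while the ratio of the FPKM means was 4.06. FGF18, a growth factor, held 70 fragments with Scramble and 15 with Si-KDM4C#2, and its 3 knockdown libraries all lay below the Scramble libraries (log2 difference -0.58, adjusted p = 0.00326 in the fit over all listed genes, limma). KLF2, a transcription factor, held 59 against 139 fragments (log2 difference 0.59, adjusted p = 0.00498, limma), and after adjustment for GC content its adjusted p was 0.149. CXCL2, a neutrophil-attracting chemokine, held 29 against 56 fragments, its libraries overlapped, and the ratio of the FPKM means was 1.99. No difference was detectable at this depth (log2 difference 0.36, interval -0.02 to 0.74, adjusted p = 0.179, limma), and on the recovered fragments limma voom gave 0.92 (adjusted p = 0.0692).

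**Figure D1:**
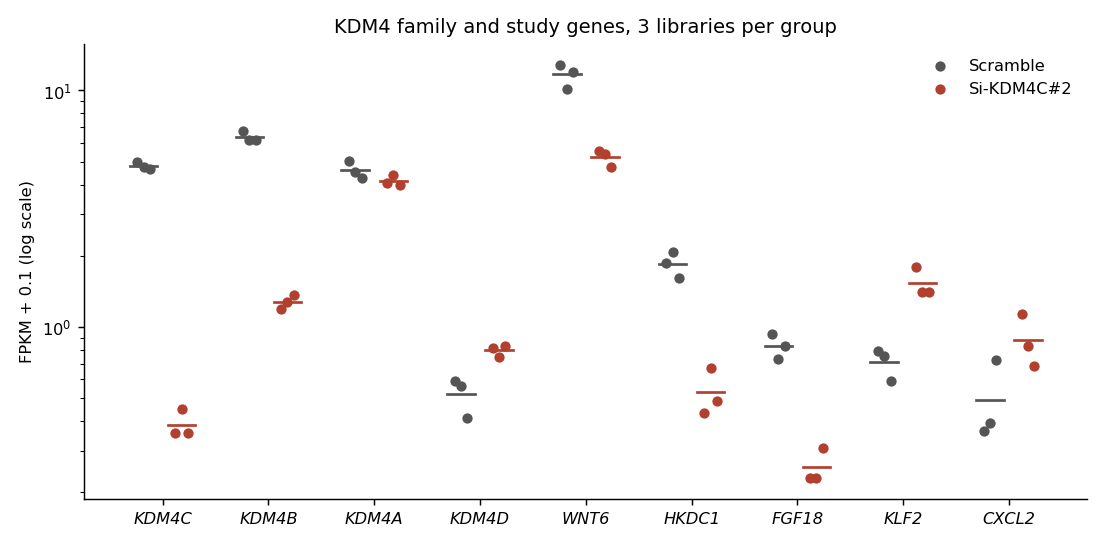
FPKM plus 0.1, on a log axis, of the 4 KDM4 genes and the 5 study genes in each of 3 Scramble and 3 Si-KDM4C#2 libraries. Points are libraries and bars are group means. KDM4C and KDM4B lie far below Scramble in all 3 Si-KDM4C#2 libraries, KDM4A and CXCL2 overlap between the groups.

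A gene was called at a false discovery rate (FDR) under 0.05 and a fold change over 2. By that rule 374 genes were higher with Si-KDM4C#2 (2.65% of those tested) and 331 lower (2.34%). At the FDR limit alone 4845 genes (34.3%) were higher and 3520 (24.9%) lower, so that most detected differences were smaller than 2-fold. Of the 705 called genes, 701 had 3 knockdown libraries on one side of all Scramble libraries, while the same held for 66% of all tested genes. On the log2(FPKM + 1) scale changes over 4-fold were few, 11 higher and 10 lower. That scale leaves out some genes of low FPKM whose ratio of means was larger than 4, such as KDM4B at 5.34. The share of calls that were higher was 53%, but 42.9% after median-ratio scaling, 44.6% after quantile normalization and 37.9% after an adjustment for GC content. Directions of whole groups are therefore read against the median log2 difference of all tested genes, 0.06. Counts of list members below are read beside the shares of all tested genes given here.

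**Figure D2:**
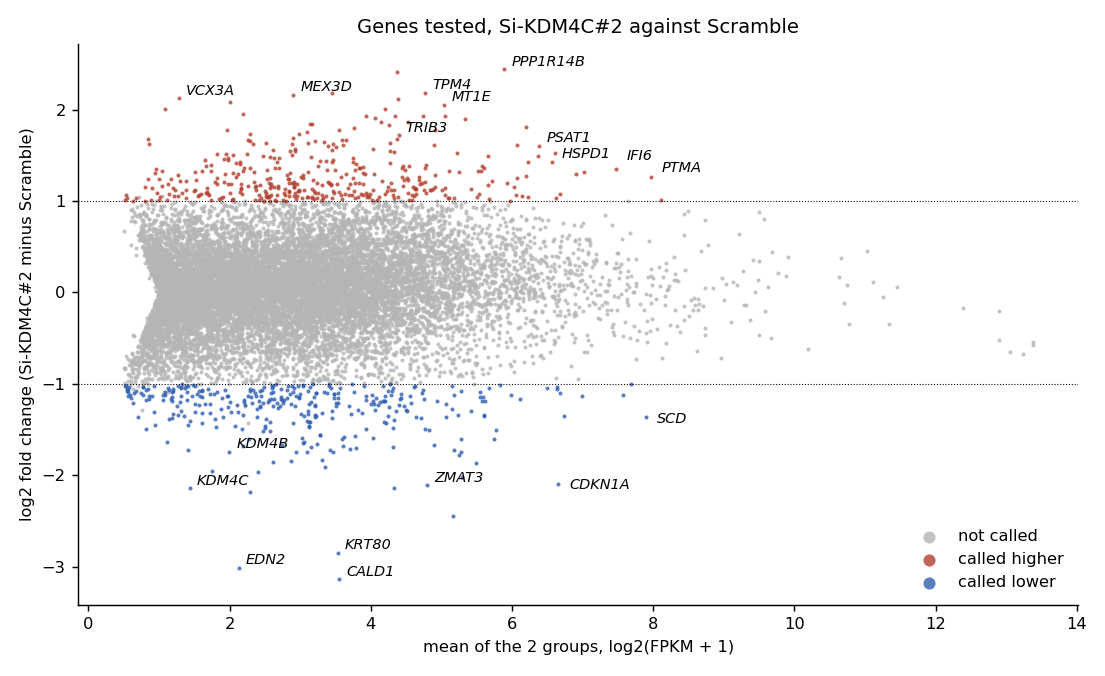
Each point is 1 of 14126 tested genes, with the mean of the 2 groups in log2(FPKM + 1) on the x axis and the log2 fold change (Si-KDM4C#2 minus Scramble) on the y axis. Dotted lines mark 2-fold. Called genes, 374 higher and 331 lower, lie outside them, with CALD1 lowest at -3.14 and PPP1R14B highest at 2.44.

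The deepest fall on the log2(FPKM + 1) scale was that of CALD1. Its ratio of mean FPKM, Scramble over Si-KDM4C#2, was 11.4, below those of EDN2 (21.1) and KDM4C (16.4). CALD1 encodes caldesmon, an actin- and tropomyosin-binding protein. Its libraries read 34.4, 34.0 and 32.8 FPKM with Scramble and 2.52, 3.20 and 3.14 FPKM with Si-KDM4C#2 (log2 difference -3.14, SE 0.07, adjusted p = 9.13e-07, limma). EDN2, the vasoconstrictor peptide endothelin 2, went from 11.4, 9.86 and 12.96 FPKM to 0.59, 0.745 and 0.286 FPKM, and 21.1 times more FPKM on average was seen with Scramble. KRT80, an epithelial keratin, fell from a mean of 30.1 ± 1.87 to 3.31 ± 0.133 FPKM (SD, n = 3 each). LAMB3, the beta 3 chain of laminin-332, fell from 41.2 to 8.64 FPKM, and PLS1, the actin-bundling protein plastin 1, from 9.44 to 1.70 FPKM. The lincRNA AP001781.1 fell from 9.34 to 1.29 FPKM. PSPHP1, a pseudogene of the phosphoserine phosphatase gene PSPH, was lower by 2.45 on the log2 scale, and C8orf59P2, a processed pseudogene with 71 against 10 fragments, by 1.95, with 1 of the 3 knockdown libraries at 0. Reads of such copies can be split with their parent genes by the counting, so the values of both are uncertain. CALD1, KRT80, LAMB3 and PLS1 were lower after Si-KDM4C#2 than after the other siRNA, with differences of -1.82, -2.36, -1.30 and -2.07 on the log2 scale (adjusted p at most 8.03e-07, limma), whereas for EDN2 the difference of -0.20 between the siRNAs had an adjusted p of 0.267 (limma).

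Among the largest rises, TPM4, tropomyosin 4, a partner of caldesmon on actin filaments, rose from 11.7, 11.5 and 11.97 FPKM to 56.4, 58.6 and 56.02 FPKM (log2 difference 2.19, SE 0.04, adjusted p = 8.46e-07, limma). On the log2(FPKM + 1) scale the largest rise was that of PPP1R14B, an inhibitor of protein phosphatase 1. It went from 24.2, 22.6 and 26.6 FPKM to 140.2, 132.6 and 138.7 FPKM. Its ratio of mean FPKM, Si-KDM4C#2 over Scramble, was 5.60, below those of LINC01976 (6.22) and MEX3D (5.81), among others. PPP1R14BP3, a processed pseudogene of PPP1R14B that may share its reads, rose from 7.92 to 46.9 FPKM. KIF1C, a kinesin that moves vesicles along microtubules, rose from 8.20 to 35.9 FPKM. MKNK2, the kinase that phosphorylates the cap-binding factor eIF4E, rose from 9.07 to 42.6 FPKM, and MEX3D, an RNA-binding protein, from 2.55 to 14.8 FPKM. FNDC10 rose from 4.15 to 22.3 FPKM. VCX3A, a member of an X-linked family of near-identical copies, held 7 fragments with Scramble and 198 with Si-KDM4C#2. The lincRNA LINC01976 rose from 1.29 to 8.03 FPKM. For MIR212 no fragment was counted in any Scramble library and 18 were counted with Si-KDM4C#2, at 6.45, 2.34 and 1.60 FPKM. A count of 0 allows up to 3 fragments, and no fold is given. This library type does not measure mature microRNAs, and MIR212 fragments can come from overlapping transcripts.

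In abundance, the largest losses were those of SCD, CDKN1A, IFITM3, ALPP, FSTL3 and NDRG1. SCD, the stearoyl-CoA desaturase that makes monounsaturated fatty acids, read 386.9, 382.8 and 376.9 FPKM with Scramble and 150.4, 144.3 and 147.8 FPKM with Si-KDM4C#2 (log2 difference -1.37, SE 0.03, adjusted p = 9.13e-07, limma). FSTL3, a secreted activin inhibitor, fell from 169.7 to 66.0 FPKM and ALPP, placental alkaline phosphatase, from 290.7 to 144.1 FPKM. The ALPP call is at the limit, and it was lost without Scramble replicate 1 and without either of Si-KDM4C#2 replicates 1 and 3. The largest gains were those of PTMA, BST2, IFI6, PTMS, PPP1R14B and HSPD1. PTMA, the nuclear protein prothymosin alpha, rose from 152.7, 156.0 and 174.5 FPKM to 384.7, 386.0 and 391.2 FPKM. PTMS, parathymosin, its paralog, rose from 81.4 to 204.4 FPKM, a call lost under the GC adjustment.

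Targets of the tumour suppressor p53 held some of the deepest falls. Of 28 tested members, 6 fell and 1 rose past both limits (2.34% and 2.65% of all tested genes). At the FDR limit alone 12 were lower and 3 higher (24.9% and 34.3% of all tested genes). The median of the list was -0.17 on the log2 scale. CDKN1A (chromosome 6 from 36676460 to 36687339), which encodes the cyclin-dependent kinase inhibitor p21, read 218.4, 205.0 and 198.6 FPKM with Scramble and 48.3, 49.2 and 46.0 FPKM with Si-KDM4C#2. It fell by 2.09 on the log2 scale (SE 0.05, adjusted p = 9.13e-07, limma). GDF15, a stress-induced cytokine of the TGF-beta family, went from 81.6, 72.5 and 78.9 FPKM to 17.9, 19.1 and 18.2 FPKM. MDM2, the ubiquitin ligase that degrades p53, read 11.3, 11.1 and 10.3 FPKM against 2.70, 3.10 and 2.47 FPKM. In these 3 genes the groups did not overlap. ZMAT3, an RNA-binding zinc finger protein, fell from 56.9 to 12.4 FPKM. RRM2B, a ribonucleotide reductase subunit, fell from 20.01 to 5.93 FPKM and SESN1, a sestrin that restrains mTORC1, from 13.7 to 4.80 FPKM. PERP, a membrane protein of desmosomes, rose from 18.3 to 41.0 FPKM. Other members did not pass: BAX at 27.0 against 27.3 FPKM, GADD45A at 13.2 against 13.8 FPKM and BBC3 at 2.71 against 3.35 FPKM.

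CDKN1A, GDF15 and MDM2 had higher means with Si-KDM4C#1 than with Scramble, at 464.3, 262.8 and 22.6 FPKM. The difference between the siRNAs was -3.25 for CDKN1A, -3.75 for GDF15 and -2.65 for MDM2 on the log2 scale (adjusted p 2.12e-09, 6.20e-09 and 1.17e-08, limma, 9 libraries). ZMAT3 was lower with both, with a further difference of -1.03 (adjusted p = 1.82e-07, limma). CCND1, cyclin D1, likewise had means of 31.0 FPKM with Scramble and 12.1 FPKM with Si-KDM4C#2, against 48.6 FPKM with the other siRNA.

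Genes of the hypoxia response, which hypoxia-inducible factors switch on when oxygen is low, stood at lower levels. Of 24 tested members 7 fell past both limits and 22 at the FDR limit alone (2.34% and 24.9% of all tested genes). By either rule 0 were higher, and the median was -0.75 against 0.06 over all tested genes. The number past both limits was 0 when the fold change was tested against 2, and 7 to 9 in the other settings that kept the 2-fold limit. HILPDA, a lipid droplet protein, read 27.3, 22.6 and 25.8 FPKM with Scramble and 10.7, 9.03 and 10.7 FPKM with Si-KDM4C#2. AK4, a mitochondrial adenylate kinase, fell from 26.3 to 11.0 FPKM (log2 difference -1.19, SE 0.04, adjusted p = 2.75e-06, limma). LOX, the lysyl oxidase that crosslinks collagen, fell from 21.99 to 9.19 FPKM. EGLN3, a prolyl hydroxylase that marks hypoxia-inducible factors for decay, fell from 31.1 to 13.3 FPKM, and NDRG1 from 187.1 to 84.7 FPKM. BNIP3, a mitophagy receptor named here outside the rule for named genes, went from 70.9 to 31.5 FPKM. CA9, a carbonic anhydrase and a common marker of hypoxia, was 87.2 FPKM with Scramble and 93.7 FPKM with Si-KDM4C#2 (log2 difference 0.11) and did not pass. Of the 5 called members with a promoter in the RefSeq table, 4 held ACGTG or GCGTG, the core letters of the hypoxia response element. Letters were sought on either strand between 250 bases before and 50 after the start. They were held by 84.2% of the tested members with a promoter, 64.7% of all tested genes and 48.4% of all promoters. Among all genes called lower with a promoter the share was 59.2%. The promoters of AK4, LOX and BNIP3 are shown because these genes fell and hold the letters. Each is the 200 bases before the RefSeq start in GRCh38.p14 on the gene's own strand, at chr1:65147352-65147551 (plus), chr5:122078260-122078459 (minus) and chr10:131981924-131982123 (minus), with matches on either strand in capitals.
AK4: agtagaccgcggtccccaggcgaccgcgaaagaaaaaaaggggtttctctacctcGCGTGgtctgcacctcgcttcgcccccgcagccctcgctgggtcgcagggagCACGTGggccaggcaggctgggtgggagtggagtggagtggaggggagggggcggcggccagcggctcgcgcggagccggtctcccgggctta
LOX: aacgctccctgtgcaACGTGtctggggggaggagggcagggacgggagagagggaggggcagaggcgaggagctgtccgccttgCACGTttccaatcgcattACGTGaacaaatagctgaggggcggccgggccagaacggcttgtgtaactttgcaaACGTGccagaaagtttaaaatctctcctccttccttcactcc
BNIP3: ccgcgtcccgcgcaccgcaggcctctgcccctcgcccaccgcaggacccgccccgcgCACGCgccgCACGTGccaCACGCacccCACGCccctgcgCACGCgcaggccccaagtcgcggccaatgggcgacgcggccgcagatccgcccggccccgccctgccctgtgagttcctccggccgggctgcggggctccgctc
A match is a description of the letters and does not mark a bound site.

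Glycolysis genes, many of them induced by hypoxia as well, followed. Of 26 listed entries 4 fell past both limits, and the median was -0.46. At the FDR limit alone 18 were lower and 4 higher (24.9% and 34.3% of all tested genes). HK1 and HK2, the hexokinases that phosphorylate glucose, went from 31.5 to 11.5 and from 33.9 to 16.0 FPKM. PFKFB4, which sets fructose 2,6-bisphosphate, went from 23.4 to 9.45 FPKM and ENO2, an enolase, from 27.7 to 12.2 FPKM. The HK2 call was lost without Scramble replicate 3. Smaller differences at the FDR limit were seen in abundant members, PGK1 at 636.4 against 386.3 FPKM, LDHA at 491.6 against 314.0 FPKM and GAPDH, which is often used as a reference gene, at 1451 against 946.2 FPKM. PFKL, the liver phosphofructokinase, differed in the other direction, at 12.9 against 25.4 FPKM.

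Transcripts of G2 phase and mitosis were higher almost throughout the list. Of 57 tested members, 52 were higher and 0 lower at the FDR limit alone (34.3% and 24.9% of all tested genes). Past both limits 7 rose, and the median was 0.49. The rise of most was under 2-fold, and the number past both limits was 4 after median-ratio scaling or GC adjustment and 2 when the fold change was tested against 2. CENPA, the histone H3 variant of centromeres, read 7.65, 6.94 and 7.09 FPKM with Scramble and 20.7, 22.1 and 20.3 FPKM with Si-KDM4C#2 (log2 difference 1.42, SE 0.05, adjusted p = 2.94e-06, limma). BIRC5 (survivin), AURKB (the Aurora B kinase) and INCENP, which together form most of the chromosomal passenger complex, rose from 16.0 to 42.7, from 18.2 to 45.8 and from 7.58 to 17.9 FPKM. The INCENP call was lost under the GC adjustment. Also called were PKMYT1, CDCA3 and CCNA2. CDC20, the activator of the anaphase-promoting complex, and PLK1, a mitotic kinase, were at 37.7 against 73.1 and at 22.5 against 42.8 FPKM, past the FDR limit but short of 2-fold. MKI67, the proliferation marker Ki-67, was at 24.0 against 30.8 FPKM. HMGB2, a chromatin protein, rose from 46.1 to 112.9 FPKM and was lower with Si-KDM4C#1, at 24.9 FPKM.

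Promoters of this list held the letters TTTGAA or TTTAAA, the core of the cell cycle homology region, on either strand in 85.1% of the 47 tested members with a promoter in the table, against 14.8% of tested genes and 24.3% of all promoters. CCAAT was held by 76.6% of the 47, against 37.1% of tested genes and 35.7% of all promoters. Of the 5 called members with a promoter, 3 held TTTGAA or TTTAAA and 5 held CCAAT. Among all genes called higher with a promoter, 14.2% held TTTGAA or TTTAAA and 37.8% held CCAAT. The list was gathered by function, and its members are known for such promoters whatever their level. The promoters of CENPA, which rose, and of CCNB1 and PLK1, which passed the FDR limit alone, are shown for the position of these letters close to the start. They are the 200 bases before it at chr2:26785856-26786055, chr5:69166950-69167149 and chr16:23678689-23678888, all on the plus strand (RefSeq, GRCh38.p14), with matches to these letters on either strand in capitals.
CENPA: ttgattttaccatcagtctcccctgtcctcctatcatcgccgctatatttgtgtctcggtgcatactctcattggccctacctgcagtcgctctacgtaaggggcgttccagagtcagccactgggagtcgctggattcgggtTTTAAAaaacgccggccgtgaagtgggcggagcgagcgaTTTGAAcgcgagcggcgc
CCNB1: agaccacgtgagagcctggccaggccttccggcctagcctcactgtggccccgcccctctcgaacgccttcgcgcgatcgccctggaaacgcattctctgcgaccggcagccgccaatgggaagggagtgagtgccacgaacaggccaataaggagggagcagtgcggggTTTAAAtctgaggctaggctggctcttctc
PLK1: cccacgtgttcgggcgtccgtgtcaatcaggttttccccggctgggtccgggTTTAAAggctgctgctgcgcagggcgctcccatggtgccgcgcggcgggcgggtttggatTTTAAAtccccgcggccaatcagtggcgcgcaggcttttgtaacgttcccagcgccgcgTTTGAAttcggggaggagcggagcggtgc
The last match begins 18 bases before the start in CENPA, 30 in CCNB1 and 29 in PLK1.

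The DNA replication and G1/S list moved less, with a median of 0.21 and no rise past both limits. At the FDR limit alone 35 of 61 members were higher and 10 lower (34.3% and 24.9% of all tested genes). CCND1 was the only called member, lower. Among 38 genes of double-strand break repair, 17 were higher and 6 lower at the FDR limit, beside 34.3% and 24.9% of all tested genes. H2AFX, the histone variant H2AX that is phosphorylated at breaks, was the only 1 called. Its libraries read 46.3, 43.7 and 44.4 FPKM with Scramble and 132.6, 115.2 and 119.8 FPKM with Si-KDM4C#2 (log2 difference 1.43, SE 0.06, adjusted p = 3.24e-06, limma). BRCA1 and BLM, both of homologous recombination, were at 8.11 against 12.7 and at 4.66 against 7.55 FPKM, and LIG4, the ligase of end joining, at 5.85 against 2.51 FPKM. ATM and PRKDC, the kinases that signal breaks, did not pass, at 4.39 against 3.98 and at 68.5 against 68.7 FPKM. Among replication-dependent histones, whose mRNAs mostly lack poly(A) tails and whose copies share sequence, HIST1H2AJ rose from 13 to 55 fragments and HIST1H4H fell from 9.13 to 3.29 FPKM, and both values are uncertain for that reason. The HIST1H2AJ call was lost under the GC adjustment.

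Targets of ATF4, the transcription factor of the integrated stress and amino acid response, held 9 members of 35 tested that rose and 1 that fell past both limits. At the FDR limit alone 22 were higher and 7 lower (34.3% and 24.9% of all tested genes), and 6 did not pass. The median was 0.32. The amino acid response core TGATGNAA, on either strand, was in 0 of the 6 called members with a promoter in the RefSeq table, in 14.3% of the 28 tested members with one, in 1.41% of tested genes and in 3.67% of all promoters. The number risen was 4 when the fold change was tested against 2 and 6 under the GC adjustment. ATF4 itself went from 67.8 to 139.6 FPKM (log2 difference 1.03). TRIB3, a pseudokinase that feeds back on ATF4, read 9.59, 8.90 and 9.57 FPKM with Scramble and 38.8, 38.4 and 38.5 FPKM with Si-KDM4C#2 (log2 difference 1.94, SE 0.04, adjusted p = 9.13e-07, limma). PCK2, the mitochondrial PEP carboxykinase, rose from 6.80 to 28.7 FPKM. NUPR1, a stress-induced nuclear protein, rose from 3.18 to 11.9 FPKM. The serine synthesis enzymes PSAT1 and PHGDH rose from 46.9 to 144.8 and from 13.8 to 34.1 FPKM, PYCR1, of proline synthesis, from 32.6 to 75 FPKM, the glutamine transporter SLC1A5 from 24.4 to 51.1 FPKM and the cystine transporter SLC7A11 from 3.59 to 10.4 FPKM. SHMT2, the mitochondrial enzyme that splits serine, was the exception and fell from 76.7 to 29.6 FPKM, while it was at 112.0 FPKM with Si-KDM4C#1. DDIT3 (CHOP), ATF3 and SLC7A5, often named beside them, did not pass, at 6.98 against 8.13, 3.72 against 4.17 and 300.3 against 273.0 FPKM. The aminoacyl-tRNA synthetases, which ATF4 also drives, held no call and had a median of 0.28. At the FDR limit 16 of 23 were higher and 3 lower (34.3% and 24.9% of all tested genes).

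Genes of the unfolded protein response of the endoplasmic reticulum mostly differed downward, with a median of -0.24, but 1 call. At the FDR limit 20 of 33 were lower and 5 higher (24.9% and 34.3% of all tested genes). DERL1, of the channel that exports misfolded proteins, fell from 8.87 to 3.47 FPKM. HSPA5, the chaperone BiP, was at 357.0 against 216.9 FPKM and XBP1 at 47.5 against 31.9 FPKM, both past the FDR limit and short of 2-fold. The heat shock list, which holds mitochondrial chaperonins beside cytosolic members, differed upward, with 3 calls and a median of 0.35. At the FDR limit 20 of 29 were higher and 5 lower (34.3% and 24.9% of all tested genes). HSPD1, the mitochondrial chaperonin HSP60, read 70.4, 73.6 and 84.0 FPKM with Scramble and 185.8, 188.1 and 189.3 FPKM with Si-KDM4C#2. HSPA1A and HSPA1B, the inducible HSP70 genes, rose from 28.9 to 74.1 and from 23.2 to 59.3 FPKM, but their sequences are nearly identical and reads cannot be assigned firmly to either. HSPE1, the partner of HSPD1, was at 9.35 against 18.3 FPKM, short of 2-fold. HSPD1 differed between the siRNAs by 1.22 (adjusted p = 1.73e-07, limma), and with Si-KDM4C#1 its mean was 80.2 FPKM.

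**Figure D3:**
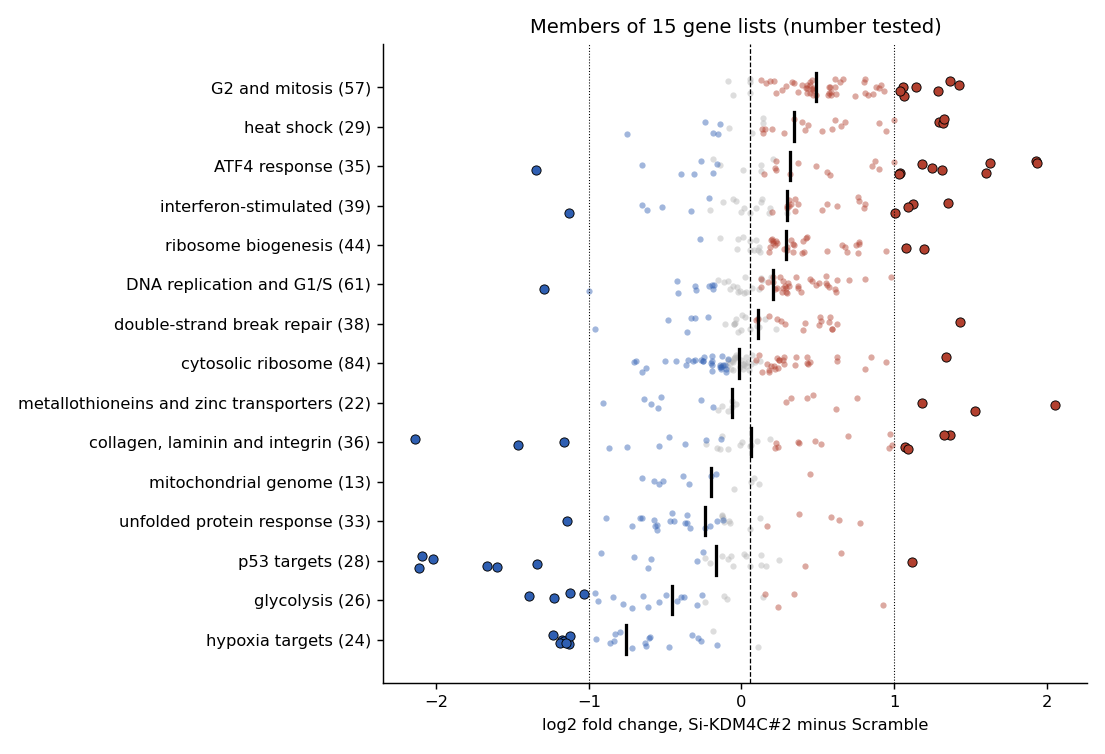
Log2 fold change (Si-KDM4C#2 minus Scramble, x axis) of each tested member of 15 gene lists (y axis, number tested in brackets). Red and blue points passed FDR upward and downward, grey points did not, outlined points also passed 2-fold, thick bars are list medians and the dashed line is the median of all tested genes, 0.06. The hypoxia list lies furthest left, with a median of -0.75, and the G2 and mitosis list furthest right, at 0.49.

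Metallothioneins, small proteins that bind zinc and copper, were the genes that rose in a list gathered by family. MT1E read 13.5, 16.1 and 15.8 FPKM with Scramble and 62.2, 64.5 and 71.1 FPKM with Si-KDM4C#2 (log2 difference 2.06, SE 0.08, adjusted p = 2.94e-06, limma). MT2A, the most abundant, read 53.9, 53.2 and 63.1 FPKM against 162.5, 158.6 and 174.5 FPKM, and MT1X rose from 1.69 to 5.09 FPKM. These 3 were the only calls among 22 tested genes of metallothioneins and zinc transporters, with a median of -0.06. At the FDR limit 9 were higher and 7 lower (34.3% and 24.9% of all tested genes). MTF1, the metal-responsive factor that switches metallothioneins on, was at 2.42 against 4.77 FPKM, and SLC30A1, the zinc exporter it also controls, at 19.4 against 26.5 FPKM, both past the FDR limit and short of 2-fold. Among the transporters SLC39A10, a zinc importer, was at 15.3 against 7.72 FPKM. MT2P1, a processed pseudogene, rose with 9 against 61 fragments and may take reads of MT2A. The metal response element core, TGCACNC or TGCGCNC on either strand, was found in both of the called genes with a promoter in the table, in 8 of the 19 tested members of the list with one (42.1%), in 39.2% of tested genes and in 29.3% of all promoters. The 200 bases before the start of MT2A (chr16:56608384-56608583, plus) and MT1X (chr16:56682270-56682469, plus; RefSeq, GRCh38.p14) are shown because both genes rose together and hold several matches, in capitals, 6 in MT2A and 4 in MT1X.
MT2A: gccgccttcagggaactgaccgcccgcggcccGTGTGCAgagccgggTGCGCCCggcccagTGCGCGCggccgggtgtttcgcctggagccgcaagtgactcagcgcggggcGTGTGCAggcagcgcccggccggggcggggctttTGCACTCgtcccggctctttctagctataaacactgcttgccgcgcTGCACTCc
MT1X: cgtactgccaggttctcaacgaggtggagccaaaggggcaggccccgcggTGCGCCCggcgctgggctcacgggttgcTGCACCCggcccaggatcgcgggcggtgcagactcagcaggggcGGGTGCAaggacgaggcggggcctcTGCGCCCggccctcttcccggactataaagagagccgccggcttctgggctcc

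Interferon-stimulated genes split. Of 39 tested members 4 rose and 1 fell past both limits (2.65% and 2.34% of all tested genes), with a median of 0.30. At the FDR limit 20 were higher and 6 lower (34.3% and 24.9% of all tested genes). IFI6, an interferon-induced mitochondrial protein, read 115.9, 108.0 and 106.6 FPKM with Scramble and 305.2, 282.1 and 264.2 FPKM with Si-KDM4C#2. BST2 (tetherin), which holds budding virus on the cell, went from 194.2 to 391.1 FPKM, a call at the limit that was lost after median-ratio scaling, after GC adjustment, in limma voom and without Scramble replicate 2 or Si-KDM4C#2 replicate 1 or 2. OAS2, a sensor of double-stranded RNA, rose from 0.932 to 3.23 FPKM and IFI27 from 3.68 to 8.96 FPKM. IFITM3, which blocks virus entry, fell from 278.8 to 127.2 FPKM. ISG15 and IFIT3 did not pass, at 298.3 against 327.7 and at 37.0 against 40.4 FPKM. IFI6, OAS2 and IFI27 had lower means with Si-KDM4C#1 than with Scramble, and the siRNAs differed by 1.797, 1.33 and 1.52 for them (adjusted p at most 3.12e-06, limma). Of 24 NF-kB targets, chemokines and cytokines, 14 were lower and 2 higher at the FDR limit (24.9% and 34.3% of all tested genes). CXCL16 and the apoptosis inhibitor BIRC3 fell, from 19.9 to 7.33 and from 7.06 to 2.69 FPKM, and NFKBIB, an inhibitor of NF-kB, rose from 4.04 to 10.2 FPKM. The BIRC3 and NFKBIB calls were lost under the GC adjustment.

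Genes of the extracellular matrix and its receptors moved both ways, with 4 of 36 collagen, laminin and integrin genes risen and 3 fallen past both limits and a median of 0.06. COL6A2 rose from 3.06 to 9.44 FPKM, COL4A1, of basement membranes, from 1.88 to 6.22 FPKM and COL5A1 from 17.8 to 39.0 FPKM. The integrins ITGAV and ITGB4, receptors for vitronectin and laminin, fell from 13.5 to 4.26 and from 8.97 to 3.45 FPKM, while ITGA2B rose from 1.05 to 3.31 FPKM. Calls of COL5A1, COL6A2 and ITGA2B were lost under the GC adjustment, and the fibroblast markers of the opening paragraphs differed in both directions, with COL3A1 and COL1A1 higher and PDGFRB lower at the FDR limit and LUM not past it. Their part in these changes was not tested. In bulk RNA more cells of a type and more RNA per cell cannot be told apart. FN1, fibronectin, was the only call of 24 epithelial and mesenchymal genes, from 2.79 to 0.869 FPKM, and it was lost without Scramble replicate 3 or Si-KDM4C#2 replicate 3 and under the GC adjustment. TGFBI and ID2, both TGF-beta or BMP targets, fell from 2.84 to 0.517 and from 24.7 to 8.09 FPKM. BMF, a pro-apoptotic BH3-only protein, fell from 10.7 to 2.22 FPKM as the only call of 16 BCL2 family genes.

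Lipid genes fell or rose one by one. Beside SCD, STARD4, a cholesterol carrier, fell from 12.8 to 4.47 FPKM, while PMVK, a mevalonate pathway kinase, rose from 12.5 to 33.8 FPKM and DGAT2, which makes triglycerides, from 66 to 677 fragments. In both lipid lists the medians were near 0, at 0.04 for cholesterol and 0.00 for fatty acid synthesis. Of NRF2 targets, SLC7A11 and SRXN1 rose and AKR1C1 fell (3.53 to 1.05 FPKM), and the SRXN1 call was lost without Scramble replicate 3 and under the GC adjustment. Among autophagy and lysosome genes, the lysosomal sialidase NEU1 fell from 15.3 to 6.59 FPKM, and the protease CTSB rose from 7.55 to 17.1 FPKM, a call lost after quantile normalization or GC adjustment.

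Genes of ribosome production were mostly higher, with a median of 0.29 and 2 calls among 44 ribosome biogenesis members. At the FDR limit 32 were higher and 1 lower (34.3% and 24.9% of all tested genes). NOLC1, a nucleolar chaperone, rose from 39.1 ± 0.371 to 90.9 ± 1.07 FPKM (SD, n = 3 each), and UBTF, the RNA polymerase I factor, from 16.1 to 35.1 FPKM. The UBTF call was lost after quantile normalization or GC adjustment. Cytosolic ribosomal proteins moved both ways, with a median of -0.02, and RPL26L1 rose from 13.1 to 34.6 FPKM. At the FDR limit 28 of 84 were higher and 29 lower (34.3% and 24.9% of all tested genes). These counts were 20 and 34 after quantile normalization and 20 and 36 after median-ratio scaling. In the mitochondrial ribosome 3 of 77 rose (MRPS34, MRPL12 and MRPL4) and 2 fell (MRPL17 and MRPL45). At the FDR limit 39 were higher and 12 lower (34.3% and 24.9% of all tested genes). MRPS34 had the largest rise on the log2 scale, from 37.6 to 117.1 FPKM, and the MRPL4 call was lost under the GC adjustment. Of the 13 mRNAs of the mitochondrial genome 8 were lower and 1 higher at the FDR limit (24.9% and 34.3% of all tested genes), none past 2-fold. MT-CO1 was at 12996 against 8724 FPKM and MT-ND3 at 1782 against 2433 FPKM. The median was -0.20 and was about 0 after quantile normalization.

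Growth factor and signalling lists held from 0 calls (Notch, of 24) to 3 calls (Wnt, of 36, and MAPK feedback, of 31). Over all tested genes 2.65% were called higher and 2.34% lower. Of 36 Wnt genes AXIN1, a scaffold that promotes beta-catenin decay, rose and WNT6 and CCND1 fell. ETV4, DUSP2 and FOSL1, induced by MAPK signalling, rose from 3.73 to 9.87, from 12.7 to 28.8 and from 3.90 to 8.82 FPKM, FJX1, a YAP target, from 6.70 to 17.4 FPKM and HOXC10 from 11.8 to 26.6 FPKM. All 6 calls upward in this group, AXIN1 included, were lost under the GC adjustment, and those of AXIN1 and FOSL1 also after median-ratio scaling. SF3B2, a spliceosome subunit, rose from 13.5 to 28.99 FPKM, a call lost after either other scaling and without Scramble replicate 1. In all, 10 of 43 functional lists held no called member: besides the histone demethylases other than KDM4, the H3K9 and H3K36 enzymes, the aminoacyl-tRNA synthetases and the mitochondrial genome, these were the nuclear respiratory chain, the proteasome, MHC class I, the Notch pathway, the Krueppel-like factors and the small RNA machinery. They had from 12 tested members (Krueppel-like factors) to 77 (nuclear respiratory chain). At the shares of all tested genes given above, a short list can hold no call, and a lack of calls was not tested.

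**Figure D4:**
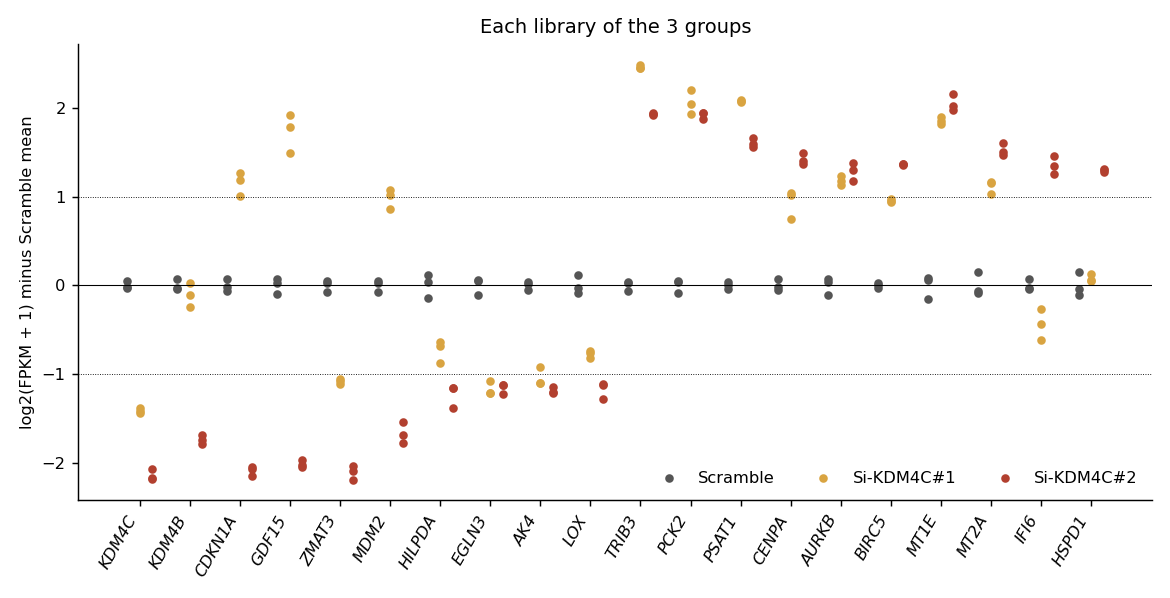
Log2(FPKM + 1) minus the Scramble mean (y axis) of 20 genes in each of the 3 libraries of Scramble, Si-KDM4C#1 and Si-KDM4C#2. CDKN1A, GDF15 and MDM2 lie below 0 with Si-KDM4C#2 and above it with Si-KDM4C#1, KDM4B and HSPD1 differ from 0 with Si-KDM4C#2 and lie near 0 with Si-KDM4C#1, and the hypoxia and ATF4 genes lie on the same side with both siRNAs.

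The siRNAs share their Scramble libraries, so the changes with each are given here side by side and not counted as repeats of each other. Over all 14363 genes of the 9-library fit, 62.4% differed between Si-KDM4C#2 and Si-KDM4C#1 at the FDR limit. Of the 115 named genes 89 did, a count raised by the choice of some of them for that difference. TRIB3, PCK2, PSAT1, AK4, LOX, EGLN3, MT1E, MT2A, CENPA and AURKB were on the same side of Scramble with both. For EGLN3 the difference between the siRNAs was 0.01 (adjusted p = 0.877, limma), for PCK2 -0.14 (adjusted p = 0.105, limma) and for AURKB 0.11 (adjusted p = 0.167, limma). Other genes called lower with Si-KDM4C#2 moved little with Si-KDM4C#1. Log2 differences of Si-KDM4C#1 from Scramble were -0.145 for SCD, -0.05 for IFITM3, -0.11 for HK1, -0.09 for DERL1 and -0.10 for ITGB4. CXCL16, NEU1 and MRPL17, also called lower with Si-KDM4C#2, were higher with Si-KDM4C#1, by 0.38, 0.56 and 0.37. Among called genes the largest differences downward were those of GDF15, CDKN1A, MAL2, PSPHP1 and MDM2, and upward those of AL662791.1, C9orf40, AP000924.1, PPP3CB and HMGB2. MAL2, a membrane traffic protein, had means of 20.2 FPKM with Scramble and 6.11 FPKM with Si-KDM4C#2, against 51.0 FPKM with the other siRNA. C9orf40 stood at 9.50, 24.9 and 3.91 FPKM in the same order, and PPP3CB, a catalytic subunit of calcineurin, at 6.61, 14.6 and 2.23 FPKM. The PPP3CB call was lost after quantile normalization and after median-ratio scaling. AL662791.1 is an antisense gene, and without strand its reads cannot be told apart from those of its partner.

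Called genes differed in base composition. GC content was taken from the longest GENCODE transcript of each gene. Its median was 57.0% in genes called higher, 45.1% in those called lower and 48.2% in all tested genes. From the lowest to the highest of 5 equal bins of GC content the share called higher went from 0.673% to 6.11% and the share called lower from 3.33% to 1.31%, while the median log2 difference went from -0.10 to 0.31. With the libraries adjusted for GC content by lowess, 236 genes were called higher and 386 lower. The groups above stood differently on this scale: the G2 and mitosis list had a median GC content of 43.2%, below that of all tested genes, and its median log2 difference was 0.58 after the adjustment, while the medians after it were -0.76 for hypoxia targets and -0.23 for p53 targets. The cause of the relation to GC content was not tested.

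**Figure D5:**
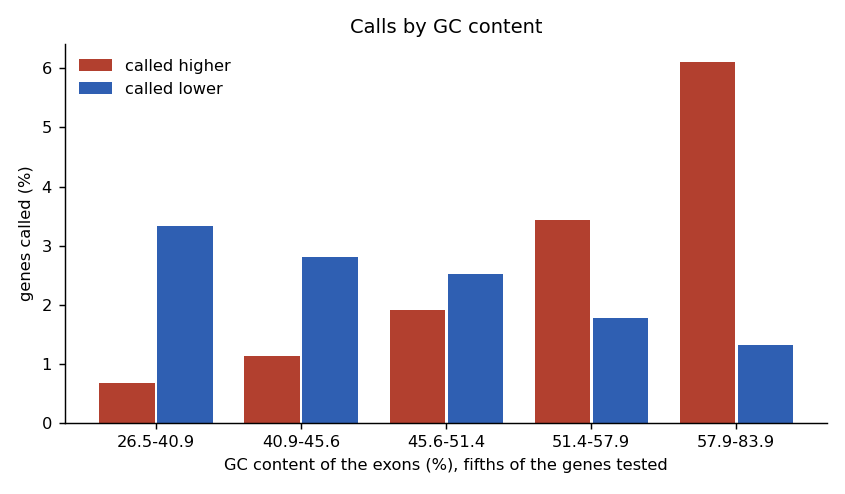
Percent of tested genes called higher and lower (y axis) in 5 equal bins of the GC content of their longest transcript (x axis, percent, labelled there as exons). The share called higher goes from 0.673% in the lowest bin to 6.11% in the highest, and the share called lower from 3.33% to 1.31%.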

How the data were processed

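Total RNA of Huh7 cells was sequenced paired-end on an Illumina NovaSeq after NEB Next Ultra library preparation. Each library came with its own FPKM list, as deposited by the authors. The submitters' processing notes name FastQC 0.11.5, HISAT2 2.1.0, StringTie 1.3.3b, featureCounts and DESeq 1.28.0 with GRCh38, without saying which made the FPKM, and no strand setting is given in the sources used here. All columns were used.

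FPKM times exon length (GENCODE release 29) and a fitted total per library gave whole fragments (within 0.05) in all 9 libraries for 97.65% of matched genes. These fragments gave the depth and 1 alternative, and a count test was not the main test because the deposited unit is FPKM.

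The test was limma 3.58.1 under R 4.3.3, run on log2(FPKM + 1) with a trended prior, 6 libraries, no covariate, Benjamini-Hochberg adjustment over 14126 genes. CXCL2, FGF18 and KDM4D, under the filter, come from the fit over all 32906 genes. Differences between siRNAs come from 1 fit of all 9 libraries (14363 genes). Tests were two-sided. The method was tested on simulated data. Python 3.11.15 with scipy 1.17.1 gave exact permutation tests.

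Named genes: the KDM4 genes and 5 study genes; the 12 largest changes each way among called genes that average 1 FPKM or more and whose groups do not overlap; the 6 largest changes in FPKM each way; up to 4 called members of each list and direction; the 5 largest differences between siRNAs each way. Members and the 48 gene lists were chosen with earlier results of these data known. Genes named beside this rule, such as BNIP3, RRM2B, SESN1, PHGDH, PYCR1, SLC1A5, ATF4, CCNB1, PLK1 and members given as short of a limit, were chosen after their values were seen. Promoters are from RefSeq (GRCh38.p14), for 9078 of the tested genes.

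Alternatives were quantile and median-ratio scaling, a pseudocount of 0.1, other filters and limits, limma voom on the fragments, a GC adjustment (lowess, span 0.3), the replicate block and leaving out each library. Limma voom with the replicate block was added after seeing the data.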

Additional observations from a re-analysis of the deposited data

Results flagged for a closer look

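In the fit of all 9 libraries, 7 genes passed both limits in opposite directions with the 2 siRNAs, and the difference between the siRNAs was tested for each. Lower with Si-KDM4C#2 and higher with Si-KDM4C#1 were GDF15 (difference -3.75 on the log2 scale), CDKN1A (-3.25), MAL2 (-2.87) and RAB5C, an early endosome GTPase (-2.45). The reverse held for C9orf40 (2.40), the lincRNA AP000924.1 (2.32) and PPP3CB (2.28). RAB5C stood at 12.8, 10.9 and 13 FPKM with Scramble and at 3.95, 4.21 and 4.35 FPKM with Si-KDM4C#2, against a mean of 27.3 FPKM with Si-KDM4C#1. KDM4B, a demethylase of the same family as the target, also differed between the siRNAs, by -1.63, and was low with Si-KDM4C#2 alone. Adjusted p-values of these differences ran from 2.12e-09 to 4.92e-06 (limma), and all 8 kept their direction and passed FDR after quantile normalization. Their causes were not tested.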

How the results depend on the processing

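KDM4C and KDM4B kept their direction and call under every alternative run for them. The 374 genes called higher and 331 called lower became 764 and 685 with a pseudocount of 0.1, 4845 and 3520 without a fold limit, 92 and 70 when the fold change was tested against 2, and 857 and 1113 in limma voom on recovered fragments (823 and 1102 with the replicate block). With the GC adjustment 236 were higher, and 236 with it and the replicate block. Leaving out 1 library gave 362 to 430 higher and 327 to 383 lower. The replicate numbers did not pair the libraries (correlations of same-numbered deviations 0.0509, 0.00842 and 0.0259), and the replicate block alone gave 372 higher and 330 lower.

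HKDC1 passed both limits with a pseudocount of 0.1 (-1.82), in limma voom (-2.10, with the block -2.07), with the GC adjustment (-1.07, with the block -1.07), without Scramble replicate 3 (-1.006) and without Si-KDM4C#2 replicate 2 (-1.012). It passed FDR alone (-0.94) and ran from -1.01 to -0.88 when 1 library was left out. FGF18 passed in limma voom (-2.21, with the block -2.20). KLF2 passed both limits with a pseudocount of 0.1 (1.11) and in limma voom (1.15, with the block 1.15), and FDR alone as reported (0.59). CXCL2 did not pass in limma voom (0.92, with the block 0.87). WNT6 did not pass when tested against 2-fold (-1.04), and ran from -1.12 to -0.97 over the fits without 1 library. No named gene reversed. Of the 108 others, 60 lost their call under at least 1 alternative, 59 of them when the fold change was tested against 2 and 20 with the GC adjustment. Of 96 list counts, 84 were equal after quantile normalization, 85 after median-ratio scaling and 67 with the GC adjustment. With 3 libraries per group an exact permutation test cannot go under 0.1, and genes of few fragments were not resolved.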

Other observations

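Calls in short noncoding RNAs differed by class, as counts with no test. Of 143 tested snRNA genes, 18 were called lower and 3 higher, with a median log2 difference of -0.42, and the summed FPKM of all listed snRNA genes was 442.3 to 547.6 with Scramble and 323 to 367.6 with Si-KDM4C#2. Of 141 misc_RNA genes 11 were called lower and 3 higher, and of 22 rRNA pseudogenes 6 were called lower and 0 higher. Of 84 snoRNA genes 3 were called higher and 3 lower, and of 6 scaRNA genes none was called. Protein-coding genes were called higher in 2.68% and lower in 2.16% of 11016 tested. Many of these short genes are near-identical copies whose reads the counting could split, and RNAs of this length are only partly kept by the library preparation, so their values are uncertain.

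Calls were spread unevenly over chromosomes. On chromosome 19, which is rich in genes of high GC content, 48 of 886 tested genes were called higher (5.42%) and 12 lower (1.35%), and on chromosome 16 the numbers were 30 and 8 of 666. On chromosome 18 they were 1 and 8 of 225. LincRNA genes were called higher in 26 and lower in 8 of 542 tested. These are counts with no test. Calls varied with GC content as given above, but GC content was not compared between chromosomes or gene classes.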
